A study of Mus musculus with 8 samples.

Results

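Type 2 immune genes were read in 8 mouse airway libraries, and the 10 described here fall into 3 roles: the epithelial alarm cytokines Il33 and Tslp, the receptor chains Il1rl1, Il4ra and Il13ra1, and the response genes Retnla, Chil3, Chil4, Mrc1 and Arg1. They are 10 of 55401 gene identifiers in the count table, and all 10 were among the 16964 genes that passed the filter on low counts. The genes were chosen with the control-against-mutant values of these libraries in view, so their differences between groups are given as a description, without a test. Per kilobase of exon, Retnla had the highest level of the 10 in both groups, and levels were most uneven between libraries for Chil4. In the libraries labelled mutant, Retnla stood 9.55-fold higher, Il33 3.32-fold, Arg1 2.78-fold, Chil3 2.01-fold, Mrc1 1.72-fold and Il13ra1 1.19-fold, each with every mutant library above every control. Tslp, Il1rl1, Il4ra and Chil4 overlapped between the groups.

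All 8 libraries are labelled as airway cells from animals with a Cre recombinase under Scgb1a1, the gene of the main club cell secretory protein, harvested 10 days after tamoxifen. The 4 control libraries come from the genotype Scgb1a1cre; Cdh1F/+, with 1 floxed allele of the E-cadherin gene Cdh1. The 4 libraries labelled mutant, called mutant libraries here after their label alone, come from Scgb1a1cre; Cdh1F/F, with both alleles floxed. Both groups therefore carry the Cre, a floxed allele and tamoxifen. Age, sex and the sorted cell fraction of each library are not given in the sources used here, nor is it said whether each library is a separate animal. Levels are in CPM, counts scaled to a common total after TMM adjustment. Total counts ran from 15111663 to 21673654, and a gene at 0 counts may have had up to 3 counts, or 0.138 to 0.199 CPM, by counting error alone. Cdh1 stood at 321.2 to 427.9 CPM in controls against 395.2 to 409.1 CPM in mutant libraries, so its level gave no check of the labels. A first principal component with 48.8% of the variance placed controls 2 and 3 at -46.5 and -53.7, apart from controls 1 and 4 at -4.1 and -9.8, and all mutant libraries at 24.5 to 31.6. Pecam1, which marks endothelial cells, stood at 1171 ± 182.6 CPM in controls (SD, n = 4), against 67.0 ± 6.91 CPM for the epithelial gene Epcam, so the libraries held RNA of several lung cell types. In such bulk samples, fewer cells of a type and less RNA per cell cannot be told apart.

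Interleukin-33 and thymic stromal lymphopoietin are called alarmins because barrier cells release them on damage. In mouse lung, alveolar type II cells are a major source of interleukin-33, whose receptor ST2, encoded by Il1rl1, sits on group 2 innate lymphoid cells, mast cells and regulatory T cells. Innate lymphoid cells, mast cells and T helper 2 cells make interleukins 4, 5 or 13. Interleukins 4 and 13 act through receptors containing the chain encoded by Il4ra and, for one receptor type, the chain encoded by Il13ra1. The signal reaches the transcription factor STAT6 and raises Retnla, Chil3, Arg1 and Mrc1 in macrophages, and some of the same genes in airway epithelium.

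Promoters of 8 of the 10 genes, all but Tslp and Arg1, were found in RefSeq's table for GRCm38.p6, which gives 10 windows for them, a pair each for Il33 and Il1rl1. A window runs from 250 bases before a start site to 50 after it. STAT factors bind palindromes of the form TTCNNNNGAA or TTCNNNGAA, which read the same on both strands. At least one match lay in 4 of the 10 windows: TTCNNNNGAA in Retnla and in the first window of Il33, and TTCNNNGAA in Chil3 and Chil4. Of 32851 promoter windows in the table, 6.95% held TTCNNNNGAA, 8.3% held TTCNNNGAA and 14.57% held either. The windows of Il1rl1, Il4ra, Il13ra1 and Mrc1 and the second window of Il33 held neither. The bases before the start site are shown for the 4 genes with a match, with the match in capitals, because they let the matches be compared and show how alike Chil3 and Chil4 are.
Retnla, chr16:48842359-48842608, plus strand: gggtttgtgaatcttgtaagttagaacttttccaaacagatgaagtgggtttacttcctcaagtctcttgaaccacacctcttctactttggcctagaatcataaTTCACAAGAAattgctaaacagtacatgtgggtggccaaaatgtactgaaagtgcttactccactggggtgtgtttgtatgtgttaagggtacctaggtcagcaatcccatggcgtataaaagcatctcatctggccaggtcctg
Il33, chr19:29924863-29925112, plus strand: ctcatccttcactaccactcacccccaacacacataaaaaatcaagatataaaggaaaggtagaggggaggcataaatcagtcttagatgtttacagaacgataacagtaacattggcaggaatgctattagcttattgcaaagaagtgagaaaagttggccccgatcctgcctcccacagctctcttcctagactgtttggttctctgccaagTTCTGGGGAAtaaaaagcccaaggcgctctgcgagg
Chil3, chr3:106167565-106167814, minus strand: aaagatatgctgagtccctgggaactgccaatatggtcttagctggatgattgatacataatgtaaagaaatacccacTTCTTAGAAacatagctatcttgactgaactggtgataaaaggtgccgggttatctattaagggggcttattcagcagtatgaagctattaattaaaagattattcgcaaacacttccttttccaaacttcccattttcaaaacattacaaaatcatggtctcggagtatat
Chil4, chr3:106219480-106219729, minus strand: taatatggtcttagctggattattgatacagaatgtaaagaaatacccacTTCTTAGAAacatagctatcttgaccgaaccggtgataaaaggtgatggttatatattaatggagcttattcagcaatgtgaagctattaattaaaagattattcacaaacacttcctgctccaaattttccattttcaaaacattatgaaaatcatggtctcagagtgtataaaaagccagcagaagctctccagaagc
Counted from the start site, with the base just before it at -1, the match began at -145 in Retnla (TTCACAAGAA), at -36 in Il33 (TTCTGGGGAA), at -172 in Chil3 and at -200 in Chil4 (TTCTTAGAA in both). Chil3 and Chil4 share the match and most of the bases around it: 251 of 271 aligned promoter bases were identical (92.6%). Start sites here are RefSeq's, while the gene spans given further on are GENCODE's. For Retnla and Chil4 the stretch shown runs into that span, so these positions depend on the start site used. A match is a run of letters, and no binding was measured in these libraries.

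Il33 (ENSMUSG00000024810, GRCm38 chromosome 19, 29925114 to 29960718), the alarmin with the higher level, stood at 101.4, 114.1, 103.3 and 102.1 CPM in controls 1 to 4. The mutant libraries 1 to 4 stood at 356.4, 371.8, 313.4 and 356.7 CPM. The lowest mutant library thus lay above the highest control, and the libraries of each group lay close together. The ratio was 3.32 (95% interval 2.94 to 3.76), a log2 fold change of 1.73 ± 0.08 (SE). The SD of its log2 CPM was 0.08 in controls and 0.11 in mutant libraries, against medians over all tested genes of 0.22 and 0.13. Il33 therefore varied little between controls, although controls 2 and 3 stood apart over all genes.

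The summed level of 11 alveolar type II cell markers ran from 24592 to 34749 CPM in controls and from 28179 to 34796 CPM in mutant libraries, and the groups overlapped. Sftpc, the surfactant protein C gene, stood at 17832 ± 2991 CPM in controls against 16491 ± 1947 CPM in mutant libraries (SD, n = 4 each). Sftpd (1.54-fold) and Cxcl15 (1.47-fold) were called higher among the 11, with adjusted p of 0.0134 and 0.0182 in the edgeR quasi-likelihood fit (Benjamini-Hochberg), where a call is an adjusted p under 0.05. Summed epithelial markers (Epcam, Krt8, Krt18, Krt19, Cldn7 and Elf3) ran from 552.6 to 807.1 CPM in controls and from 1262 to 1572 CPM in mutant libraries, without overlap. The part of epithelial content in the difference of Il33 was not tested.

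Tslp (ENSMUSG00000024379, chromosome 18, 32815383 to 32819797), the other alarmin among the 10, was low. It stood at 5.39, 4.06, 4.11 and 5.47 CPM in controls 1 to 4 and at 3.74, 4.14, 4.42 and 4.48 CPM in mutant libraries 1 to 4, which rests on 59 to 112 counts per library. The mutant libraries lay within or just below the range of the controls, and controls 1 and 4 were the highest. The ratio was 0.879, with a 95% interval from 0.688 to 1.12.

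**Figure D1:**
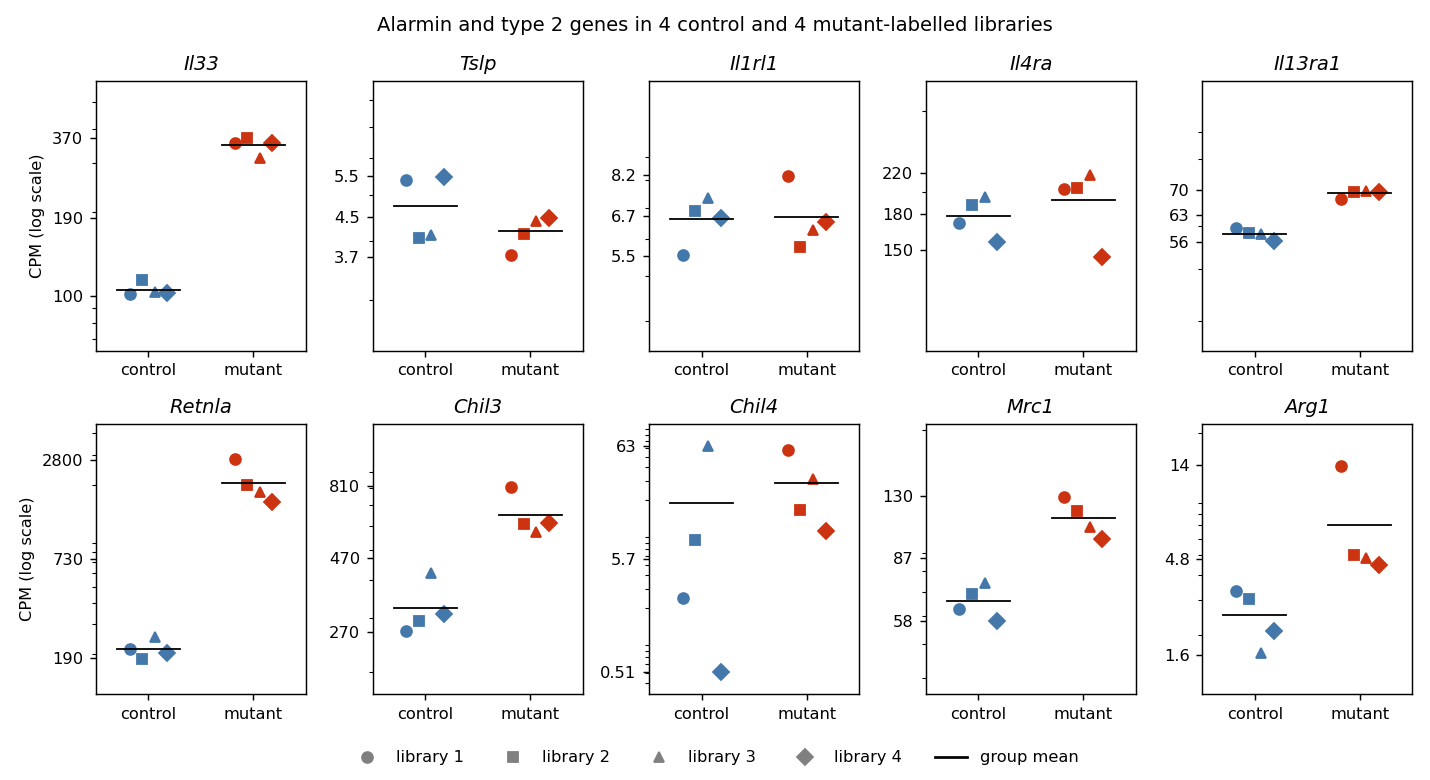
Level of each of the 10 genes in CPM (log scale, its own axis per gene) in 4 control (blue) and 4 mutant (red) libraries. Each symbol is 1 library and each bar a group mean: the groups are apart for Il33, Il13ra1, Retnla, Chil3, Mrc1 and Arg1, and controls of Chil4 span 0.512 to 62.8 CPM.

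Of the 3 receptor chains, Il1rl1 and Il4ra overlapped between the groups and Il13ra1 did not. Il1rl1 (ENSMUSG00000026069, chromosome 1, 40429570 to 40465415), the binding chain for interleukin-33, stood at 5.53, 6.88, 7.34 and 6.65 CPM in controls 1 to 4 and at 8.16, 5.77, 6.26 and 6.51 CPM in mutant libraries 1 to 4. Control 1 was the lowest and mutant library 1 the highest of all 8, with the others interleaved. The ratio was 1.01, and its 95% interval reached from 0.801 to 1.28. Il4ra (ENSMUSG00000030748, chromosome 7, 125552120 to 125579474), the chain shared by the receptors for interleukins 4 and 13, stood at 171.4, 187.4, 195.5 and 156.2 CPM in controls. In mutant libraries it stood at 203.5, 204.5, 218.1 and 145.1 CPM. Library 4 of the mutant group was the lowest of all 8 and the other three were the highest, so the groups overlapped through that library, and the ratio was 1.09 (95% interval 0.889 to 1.33).

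Il13ra1 (ENSMUSG00000017057, chromosome X, 36112110 to 36171259), the chain that joins Il4ra to bind interleukin-13, was the least variable of the 10. It stood at 59.6, 58.2, 58.2 and 56.4 CPM in controls 1 to 4 and at 67.6, 69.4, 69.8 and 69.6 CPM in mutant libraries 1 to 4. All 4 mutant libraries lay above all 4 controls, by a ratio of 1.19 (95% interval 1.09 to 1.30). Its log2 fold change kept between 0.24 and 0.31 in 17 alternative settings.

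Retnla (ENSMUSG00000061100, chromosome 16, 48842551 to 48844461), the secreted resistin-like molecule alpha made by type 2 activated macrophages and by airway epithelium, had the largest difference of the 10. It stood at 215.8, 187.2, 251.8 and 203.7 CPM in controls 1 to 4. In mutant libraries 1 to 4 it stood at 2831, 1988, 1803 and 1576 CPM. Library 1 was the highest of its group, and the lowest mutant library still lay several times above the highest control. The ratio was 9.55 (95% interval 7.10 to 12.8), a log2 fold change of 3.26 ± 0.19 (SE). Per kilobase of exon Retnla was the highest of the 10 genes in both groups, at 358.3 ± 45.8 in controls and 3421 ± 913.8 in mutant libraries, in CPM per kilobase (SD, n = 4 each).

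Its neighbours on chromosome 16 belong to the same family. Retnlb (48816856 to 48818892), the resistin-like molecule beta of goblet cells, had 1, 0, 1 and 2 counts in controls 1 to 4 and 41, 28, 36 and 49 counts in mutant libraries 1 to 4. Scaled to library size the ratio was 36.5, with a counting interval from 13.98 to 135.8, and the adjusted p was 0.000108 in the edgeR quasi-likelihood fit (Benjamini-Hochberg). Retnlg (48872621 to 48874496), a family member of bone marrow and neutrophils, stood at 5.10 ± 3.61 CPM in controls against 13.5 ± 2.82 CPM in mutant libraries and was not called (adjusted p of 0.0887 in the edgeR quasi-likelihood fit, Benjamini-Hochberg). All 3 genes of this cluster therefore had every mutant library above every control, with mean levels in those libraries from 2.03 CPM for Retnlb to 2049 CPM for Retnla. Over all tested genes that share was 9.73%. The 3 genes were chosen with earlier results of these data known, so nothing is read from their count. The longest coding transcripts of Retnla and Retnlb were 74.8% identical and shared 0.0% of windows of 50 bases, so no stretch of that length was common to both. Retn, the resistin gene itself, which lies on another chromosome, stood at 5.50 ± 1.64 and 3.96 ± 1.51 CPM and was not called.

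Chil3 (ENSMUSG00000040809, chromosome 3, 106147554 to 106167564, minus strand), the chitinase-like protein Ym1 of lung macrophages and neutrophils, stood at 270.6, 292.5, 420.9 and 309.2 CPM in controls 1 to 4. In mutant libraries 1 to 4 it stood at 805.4, 606.4, 574.4 and 611.1 CPM. Control 3 and mutant library 1 were the highest of their groups, and the groups did not overlap. The ratio was 2.01 (95% interval 1.57 to 2.56), a log2 fold change of 1.01 ± 0.16 (SE).

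Chil4 (ENSMUSG00000063779, chromosome 3, 106201490 to 106219507, minus strand), the related protein Ym2, which lies next to Chil3 and is induced in airway epithelium by allergen, behaved differently from its neighbour. It stood at 2.45, 8.53, 62.8 and 0.512 CPM in controls 1 to 4, from 51, 124, 1069 and 10 counts. In mutant libraries 1 to 4 it stood at 58.1, 16.1, 31.2 and 10.3 CPM, from 1011, 296, 558 and 227 counts. The highest of all 8 libraries was thus a control, the highest control was 122.7 times the lowest, and the highest mutant library was 5.66 times the lowest. The SD of its log2 CPM was 2.82 in controls and 1.09 in mutant libraries. The ratio of 1.56 had a 95% interval from 0.299 to 8.18, and its log2 value moved from 0.64 to 2.99 without control 3 and to 0.05 without mutant library 1. Chil3 and Chil4 transcripts (1539 bases each) were 94.4% identical and shared 18.5% of windows of 50 bases exactly, and reads that mapped to several places were not counted. Levels of both are therefore uncertain, although their profiles over the libraries differed.

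The library pattern of Chil4 was nearest to that of Clca1, a secreted protein of goblet cells. Clca1 stood at 56.7, 100.3, 314.6 and 35.6 CPM in controls and at 278.6, 110.4, 259.0 and 64.3 CPM in mutant libraries, so that libraries of each group came in the same order for both genes. Likeness was measured as the root mean square difference of log2 CPM over the 8 libraries after subtraction of each gene's mean, among 13256 genes with a mean of at least 2 CPM. For Clca1 it was 1.16, and for Alox15, a lipid-oxidising enzyme induced by interleukin-13, 1.47. These values are far larger than those found for the other 9 genes, so Chil4 had no close match. Alox15 stood at 1.54, 3.10, 8.75 and 2.97 CPM in controls and at 13.045, 5.61, 6.93 and 5.34 CPM in mutant libraries, and the goblet gene Fcgbp, picked after its values were seen, at 9.57, 26.7, 37.6 and 17.0 and at 44.9, 19.9, 46.1 and 14.2 CPM. Control 3 was the highest control and mutant libraries 1 and 3 the highest of their group for Chil4, Clca1, Alox15 and Fcgbp. Serpina3m did not share that order. It stood at 6.11, 2.96, 3.93 and 0.512 CPM in controls 1 to 4, with control 1 the highest. In mutant libraries 1 to 4 it stood at 10.8, 8.76, 3.47 and 2.03 CPM, with libraries 1 and 2 the highest. Chil4, Clca1, Alox15 and Fcgbp were set side by side because of their values, and the points share libraries and depth.

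**Figure D2:**
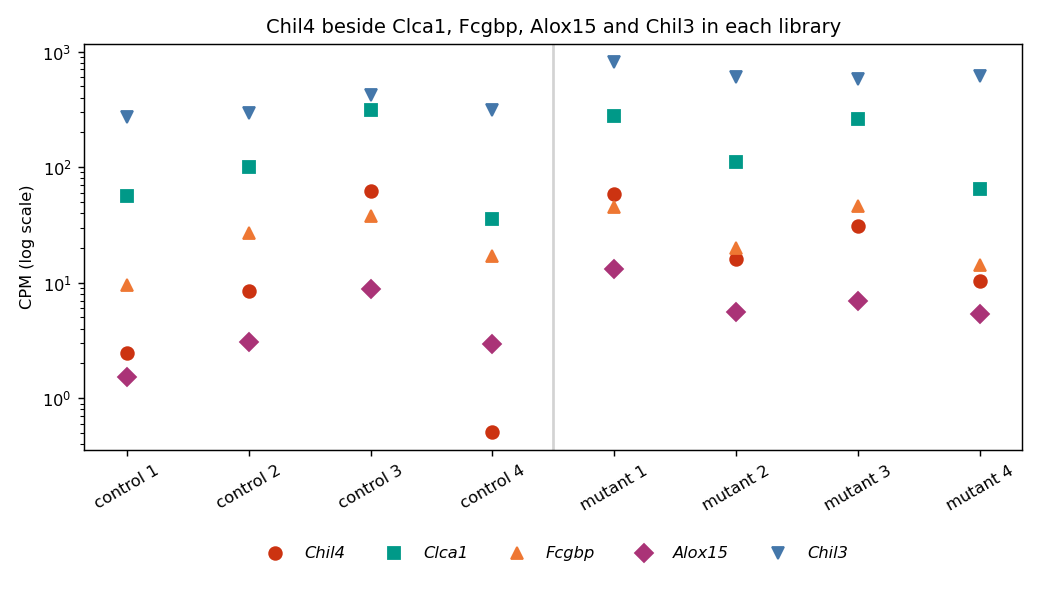
CPM (log scale) of Chil4, Clca1, Fcgbp, Alox15 and Chil3 in each of the 4 control and 4 mutant libraries, 1 symbol per gene and library. Chil4 ranges from 0.512 CPM in control 4 to 62.8 CPM in control 3, while Chil3 stays between 270.6 and 805.4 CPM.

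Mrc1 (ENSMUSG00000026712, chromosome 2, 14229392 to 14332057), the mannose receptor CD206 of tissue macrophages, stood at 62.7, 69.2, 74.1 and 57.8 CPM in controls 1 to 4. In mutant libraries 1 to 4 it stood at 129.9, 118.2, 106.7 and 98.9 CPM. The groups did not overlap, and the ratio was 1.72 (95% interval 1.46 to 2.03). Arg1 (ENSMUSG00000019987, chromosome 10, 24915221 to 24927484, minus strand), the arginase of type 2 activated macrophages, was far lower, at 3.32, 3.03, 1.64 and 2.10 CPM in controls. In mutant libraries it stood at 13.8, 5.01, 4.81 and 4.48 CPM, from 86 to 241 counts. Library 1 was far above the other three, which lay close together and above every control. The ratio was 2.78 (95% interval 1.46 to 5.27), and its log2 value moved from 1.47 to 0.92 without mutant library 1.

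In 6 of the 10 genes, namely Il33, Il13ra1, Retnla, Chil3, Mrc1 and Arg1, every mutant library lay above every control, and in 0 every one lay below. Over all 16964 tested genes these shares were 9.73% and 7.07%. Since the genes were chosen from this contrast, nothing is read from these counts. The median log2 fold change of the 10 was 0.71, against -0.01 over all tested genes.

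**Figure D3:**
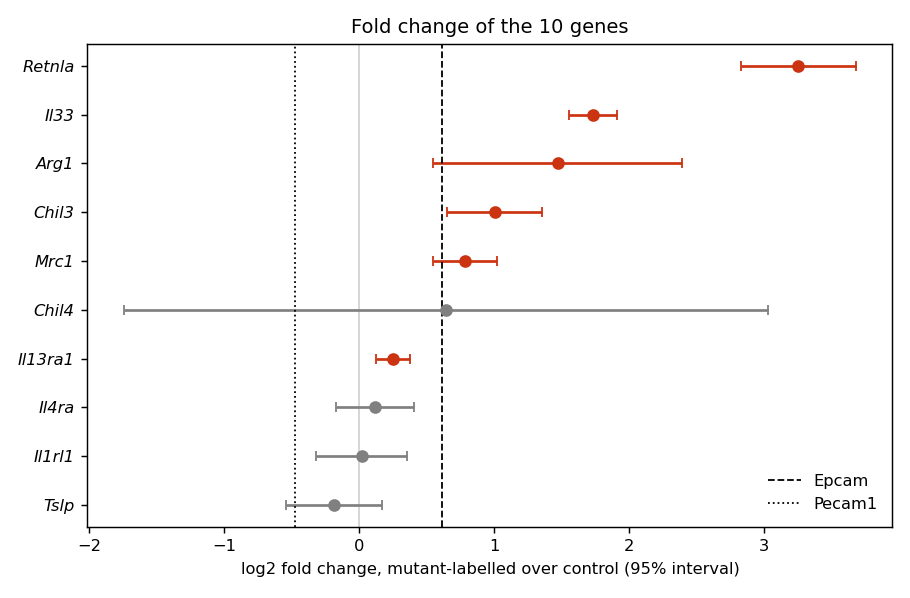
Log2 fold change (points) with its 95% interval (bars) for the 10 genes, red where every mutant library lay above every control and grey where the groups overlapped. The dashed line marks Epcam (0.61) and the dotted line Pecam1 (-0.48): Retnla at 3.26 and Il33 at 1.73 lie farthest right, and the interval of Chil4 is the widest.

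The order of the levels differed between the groups only among the lower genes. In CPM per kilobase of exon, the controls ran from Retnla (358.3) and Chil3 (198.1 ± 41.0) through Il33 (36.5 ± 2.08), Il4ra (29.6 ± 2.90), Il13ra1 (15.6 ± 0.354), Mrc1 (10.4 ± 1.13), Chil4 (6.59 ± 10.5), Tslp (3.57 ± 0.585) and Arg1 (1.13 ± 0.352) to Il1rl1 (0.957 ± 0.111). Neighbours whose ranges overlapped were Mrc1 and Chil4, Chil4 and Tslp, and Arg1 and Il1rl1. In mutant libraries Il33 stood at 121.1 ± 8.73 and Chil3 at 397.9 ± 64.5 CPM per kilobase, and the first 7 places were held by the same genes in the same order. Arg1 (3.16 ± 2.04) and Tslp (3.15 ± 0.254) then overlapped, as did each pair of neighbours from Il13ra1 to Arg1.

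Within a group the 10 genes did not share 1 order of libraries, but some libraries recurred. Mutant library 1 was the highest of its group for Il1rl1, Retnla, Chil3, Chil4, Mrc1 and Arg1. Control 3 was the highest control for Il1rl1, Il4ra, Retnla, Chil3, Chil4 and Mrc1. All 5 response genes except Arg1 thus had the same pair of top libraries. The leukocyte gene Ptprc did not follow that pattern: it stood at 204.1, 75.5, 64.0 and 100.8 CPM in controls 1 to 4 and between 93.1 and 113.4 CPM in mutant libraries, with control 3 the lowest.

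The genes most like each of the others over the 8 libraries were a mixed group. For Il33 they were the integrin gene Itga7 (root mean square difference 0.0899 log2 units), the fatty acid receptor gene Ffar4 (0.110) and Mybpc2 (0.128). For Retnla they were the ciliated cell genes Ccno (0.266) and Mcidas (0.283) with Atp10b (0.281), and for Chil3 Steap2 (0.163), Ggt6 (0.166) and Mmp23 (0.178). Ccno stood at 3.03 to 4.30 CPM in controls against 32.0 to 36.0 CPM in mutant libraries, where library 1 did not stand above the others as it did for Retnla. For Mrc1 they were Rhou (0.101), Tceal9 (0.102) and Mboat1 (0.115). Those of Arg1 were Dhrs9 (0.331), the B cell chemokine gene Cxcl13 (0.369) and Serpina3g (0.377). Il13ra1 was matched by Neil1 (0.0303), Stk19 and Cmas, Il4ra by Rras2 (0.0658), Far1 and Pdzrn3, Il1rl1 by Pcdh7 (0.0414), Tmem14a and Mettl23, and Tslp by Hsf4 (0.051), Map3k11 and Aatk. For genes that hardly differ between groups, such a match rests on small deviations of single libraries.

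Of 118 other genes in 8 lists of the pathway, 96 were tested, 13 were called higher and 1 lower, with a median log2 fold change of 0.15. Of all 16964 tested genes 5.45% were called higher and 2.36% lower, and the median was -0.01. At these shares a list of 20 genes would hold about 1 gene called higher, so a list with 1 or 2 calls is not set apart by its count. The lists overlap each other and were written with earlier results of these data known. Among 8 tested other alarmins and epithelial cytokines, Areg alone was called, higher (median log2 fold change 0.22). Areg, an epidermal growth factor receptor ligand made by epithelium and by innate lymphoid cells, stood at 4.57, 4.13, 4.40 and 4.91 CPM in controls and at 32.5, 33.4, 35.5 and 45.7 CPM in mutant libraries. The groups were far apart, with a ratio of 8.14 and an adjusted p of 3.3e-06 in the edgeR quasi-likelihood fit (Benjamini-Hochberg). The alarmins Hmgb1 (222.6 ± 11.7 and 214.4 ± 6.24 CPM), S100a9 (31.8 ± 26.6 and 41.8 ± 3.48 CPM) and S100a8 (17.6 ± 13.7 and 20.9 ± 0.882 CPM) were not called. Il25, the tuft cell alarmin, had 0 counts in all 4 controls and 2 counts in the mutant libraries together.

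Of 13 tested receptors, Il5ra, the interleukin-5 receptor of eosinophils and B cells, was called higher, 0 were lower, and the median log2 fold change was 0.22. Il5ra had 5, 3, 4 and 7 counts in controls and 15, 12, 14 and 13 counts in mutant libraries, 2.68-fold higher with an adjusted p of 0.018 in the edgeR quasi-likelihood fit (Benjamini-Hochberg). That call was lost without control 2, control 3, both of them, or mutant library 1, and in the fit with a replicate block. The receptors with the highest levels, Il1r1 (54.6 ± 3.39 and 64.3 ± 9.54 CPM), Il17ra (42.7 ± 18.3 and 50.04 ± 4.31 CPM) and Csf2rb (39.2 ± 23.8 and 59.5 ± 4.45 CPM), were not called. Without control 1, 5 receptors were called higher, but in that fit 1517 of all 17129 tested genes were, against 924 in the main fit. Without control 2, or without control 3, 0 receptors were called.

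Of 20 signal transducers, 2 were called higher and 0 lower, with a median log2 fold change of 0.07. Socs3, a feedback inhibitor of cytokine signalling, stood at 67.7, 35.2, 29.9 and 68.6 CPM in controls and 109.3, 96.7, 111.3 and 126.4 CPM in mutant libraries (2.20-fold, adjusted p of 0.0296 in the edgeR quasi-likelihood fit, Benjamini-Hochberg). Irs2, an adaptor of insulin and interleukin-4 receptors, was 1.20-fold higher (adjusted p of 0.0419 by the same edgeR test). Each call was lost in several alternatives: Irs2 in 9 of 17 and Socs3 in 6 of 17, including the omission of control 2 or of any 1 mutant library. Stat6 stood at 185.1 to 192.3 CPM in controls against 163.0 to 172.0 CPM in mutant libraries. All 4 lay below the controls, and it was not called (adjusted p of 0.134 by the same edgeR test). Stat3 (274.2 ± 27.6 and 334.1 ± 15.7 CPM) and Jak1 (265.4 ± 10.5 and 234.4 ± 12.2 CPM), with Stat6 the transducers with the highest levels, were not called. Every mutant library lay above every control for Stat3 and below every control for Jak1. Over all tested genes these shares were 9.73% and 7.07%.

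The cytokines that link alarmins to the response genes were low. Il4 had 49, 42, 33 and 35 counts in controls and 33, 48, 31 and 38 counts in mutant libraries, and its groups overlapped. Il5 had 7, 5, 4 and 11 counts against 14, 20, 6 and 8, and Il13 had 3, 3, 1 and 9 against 10, 9, 7 and 3. Neither passed the filter on low counts, and the groups overlapped for each. Over summed counts the ratio was 1.69 for Il5 (counting interval 1.03 to 2.81) and 1.72 for Il13 (0.904 to 3.39), intervals that leave out the spread between libraries. Il4, Il5 and Il13 fall outside the rule for named genes and were picked as the textbook link between alarmins and response genes. Of the 9 tested genes in the list of type 2 cytokines and their lymphocytes, Hpgds, a prostaglandin D2 synthase of T helper 2 cells, mast cells and macrophages, was called higher and 0 were lower (median log2 fold change -0.13). Hpgds stood at 2.16 ± 0.246 CPM in controls against 4.22 ± 0.286 CPM in mutant libraries (SD, n = 4 each), with an adjusted p of 0.00536 in the edgeR quasi-likelihood fit (Benjamini-Hochberg). Rora (70.1 ± 18.4 and 56.2 ± 4.02 CPM), Gata3 (7.80 ± 0.358 and 6.78 ± 0.570 CPM) and Klrg1 (2.53 ± 1.02 and 2.34 ± 0.190 CPM), genes of innate lymphoid cells also expressed elsewhere, were not called.

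Of 7 tested eosinophil, mast cell and basophil markers, 1 was called higher and 1 lower, with a median log2 fold change of -0.24. Hdc, which makes histamine in mast cells, basophils and neutrophils, stood at 56.6, 66.6, 71.4 and 94.8 CPM in controls and at 142.2, 167.3, 143.1 and 161.7 CPM in mutant libraries (2.12-fold, adjusted p of 0.00199 in the edgeR quasi-likelihood fit, Benjamini-Hochberg). The mast cell protease gene Cpa3 stood at 2.79 ± 1.40 and 2.38 ± 0.166 CPM, Cma1 at 1.91 ± 0.930 and 1.90 ± 0.268 CPM and Tpsb2 at 1.15 ± 0.482 and 0.639 ± 0.205 CPM, and none of the 3 was called. Ear1, an eosinophil-associated ribonuclease gene with near-identical copies, was lower, from 11.2 ± 1.64 to 6.92 ± 1.19 CPM (adjusted p of 0.0302 by the same edgeR test), a call lost in 5 of 17 alternatives. Its level is uncertain because shared reads were not counted. Epx, the eosinophil peroxidase gene, had 0 counts in controls and 5 counts in the mutant libraries together.

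Of 20 tested other macrophage genes known to respond to interleukins 4 or 13, Clec7a, the fungal glucan receptor, was called higher and 0 were lower. Their median log2 fold change was 0.12. Clec7a stood at 34.9, 17.9, 14.9 and 21.7 CPM in controls and 42.8, 34.5, 48.3 and 50.4 CPM in mutant libraries. Control 1 reached into the mutant range, the adjusted p was 0.0415 in the edgeR quasi-likelihood fit (Benjamini-Hochberg), and the call was lost in 9 of 17 alternatives. Tgm2 (667.9 ± 148.6 and 542.3 ± 90.2 CPM), Klf4 (200.2 ± 58.4 and 227.5 ± 53.4 CPM) and Slc7a2 (65.0 ± 11.8 and 61.0 ± 8.24 CPM), the list's most abundant members, were not called. The chemokine gene Ccl24, picked after its values were seen, reached 12.01 CPM in mutant library 1 and stood between 0.362 and 2.78 CPM in the other 7 libraries.

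Of 16 tested airway epithelial genes known to respond to interleukin-13, 5 were called higher and 0 lower, against 5.45% and 2.36% of all tested genes, and the median log2 fold change was 0.62. Since this list was written with earlier results of these data known, nothing is read from that count. The called genes were the mucin gene Muc5ac (6.20 ± 1.40 to 30.5 ± 6.03 CPM, SD, n = 4 each), the mucin-folding gene Agr2 (5.58 ± 2.60 to 43.5 ± 12.98 CPM), the anion exchanger gene Slc26a4 (6.06 ± 1.28 to 42.9 ± 26.5 CPM) and the goblet cell transcription factor genes Foxa3 (0.438 ± 0.0795 to 1.65 ± 0.581 CPM) and Spdef (3.65 ± 0.502 to 6.14 ± 1.44 CPM). Their adjusted p were 0.000186, 0.000737, 0.00299, 0.00724 and 0.0429 in the edgeR quasi-likelihood fit (Benjamini-Hochberg). Library 1 was the highest mutant library for Agr2 (61.9 CPM), Slc26a4 (81.6 CPM) and Spdef (8.27 CPM), as it was for 6 of the 10 genes above. Foxa3 rests on 5 to 11 counts per control and 20 to 40 per mutant library. Spdef lost its call in 9 of 17 alternatives, and without controls 2 and 3 the number called was 3. Tgm2, Postn (500.1 ± 23.1 and 439.8 ± 29.2 CPM) and Clca1 were the list's most abundant members and were not called. Itln1, picked after its values were seen, stood at 165.5 CPM in mutant library 2 and between 1.06 and 1.90 CPM in the other three, against 26.0 to 101.3 CPM in controls.

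In the resistin-like and chitinase families, Retnlb was the gene called of 6 tested outside the 10, with a median log2 fold change of 0.31. Chil1, the chitinase-like protein of macrophages and epithelium, stood at 905.8 ± 296.7 and 1151 ± 310.5 CPM, and Chia1, the acidic chitinase next to Chil3 on chromosome 3 (106113229 to 106132120), at 148.6 ± 28.8 and 180.3 ± 26.8 CPM. Neither was called, and the groups overlapped for each.

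**Figure D4:**
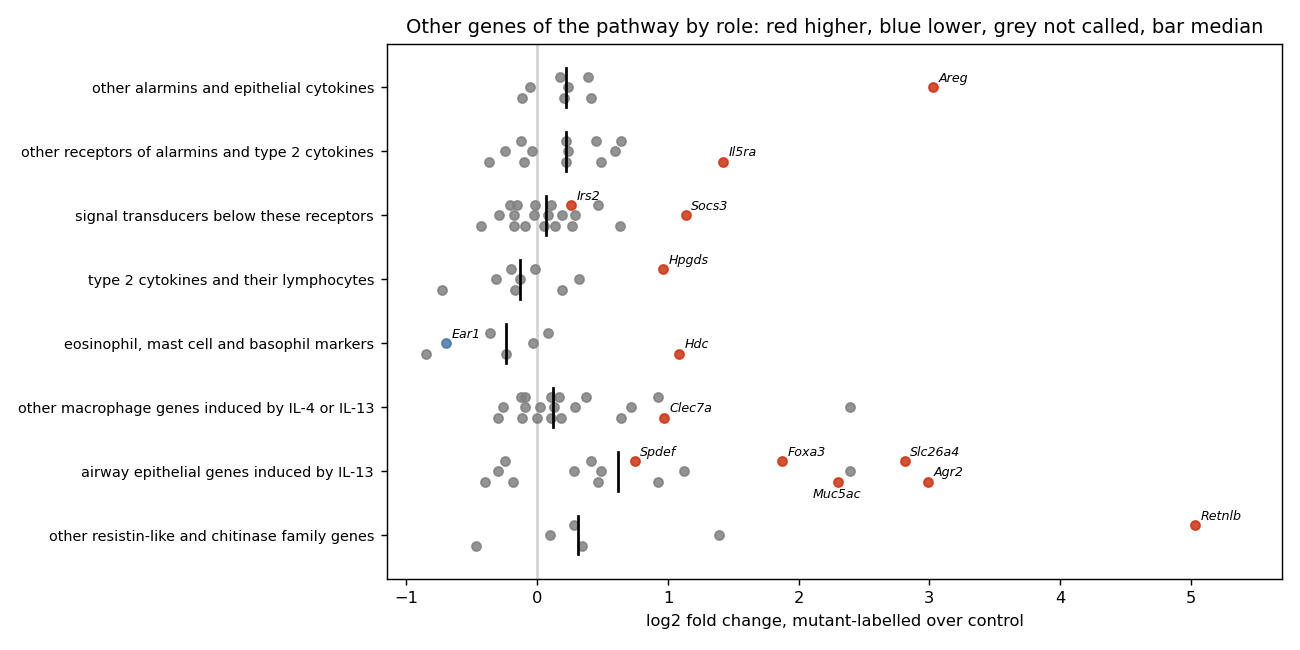
Log2 fold change of each tested gene in 8 lists of other pathway genes, mutant over control, with 1 point per gene and a bar at the list median. Called genes are named: 13 are higher (red) and Ear1 is lower (blue), with 5 of the 13 among epithelial genes that respond to interleukin-13. The lists were written with earlier results of these data known.

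Markers of the cells that could hold these transcripts did not move as 1 block. Alveolar macrophage markers, which mark a known site of Chil3, summed to 501.5 to 573.6 CPM over 14 genes in controls and 534.7 to 651.9 CPM in mutant libraries, and overlapped. Atp6v0d2, Plet1, Olr1, F7 and Ctsk were called higher and 0 lower, and Cidec, Fabp1 and Fabp4, of the same list, were below every control without a call. Not all genes of this list are limited to macrophages, Ctsk (25.4 ± 2.46 to 62.2 ± 8.45 CPM) and Plet1 among them. The sum of the list therefore does not measure macrophages alone. Interstitial macrophage markers summed to 560.0 to 712.7 CPM and 572.6 to 645.0 CPM over 11 genes, with C1qc called higher (54.8 ± 3.90 to 70.0 ± 7.98 CPM). Monocyte and neutrophil markers ran from 73.9 to 252.8 CPM in controls against 179.2 to 207.6 CPM in mutant libraries, with 0 of 8 called. Lymphocyte markers ran from 46.0 to 96.6 CPM and 68.1 to 96.9 CPM, with 0 of 9 called. Summed macrophage markers therefore overlapped between the groups where Mrc1, Chil3 and Retnla did not. Whether a shift among macrophage types takes part in the differences of these 3 genes was not tested.

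Among other cell types, club cell markers fell in 6 of 10 and rose in 0, with sums of 25944 to 28349 CPM in controls against 8889 to 11258 CPM in mutant libraries. Ciliated markers rose in 6 of 9, from sums of 279.3 to 384.1 CPM to sums of 523.9 to 693.4 CPM. Tuft cell markers summed to 27.1 to 31.2 CPM and 36.2 to 40.2 CPM, with Dclk1 and Avil of 5 tested called higher. Lung endothelial markers fell in 4 of 8 (3838 to 4913 CPM and 3122 to 3494 CPM). Lymphatic markers (461.5 to 733.1 and 430.8 to 549.9 CPM, Prox1 higher of 6), fibroblast and smooth muscle markers (2491 to 3604 and 3134 to 3775 CPM, Col3a1 higher of 9) and basal cell markers (7.57 to 19.1 and 6.49 to 18.4 CPM, 0 of 5 called) overlapped between the groups. All counts are calls of the same edgeR test, which called 5.45% of all tested genes higher and 2.36% lower, and no gene of a marker list was at 0 in every library. The part of these shifts in the differences of Retnla, Areg or the goblet cell genes was not tested.

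**Figure D5:**
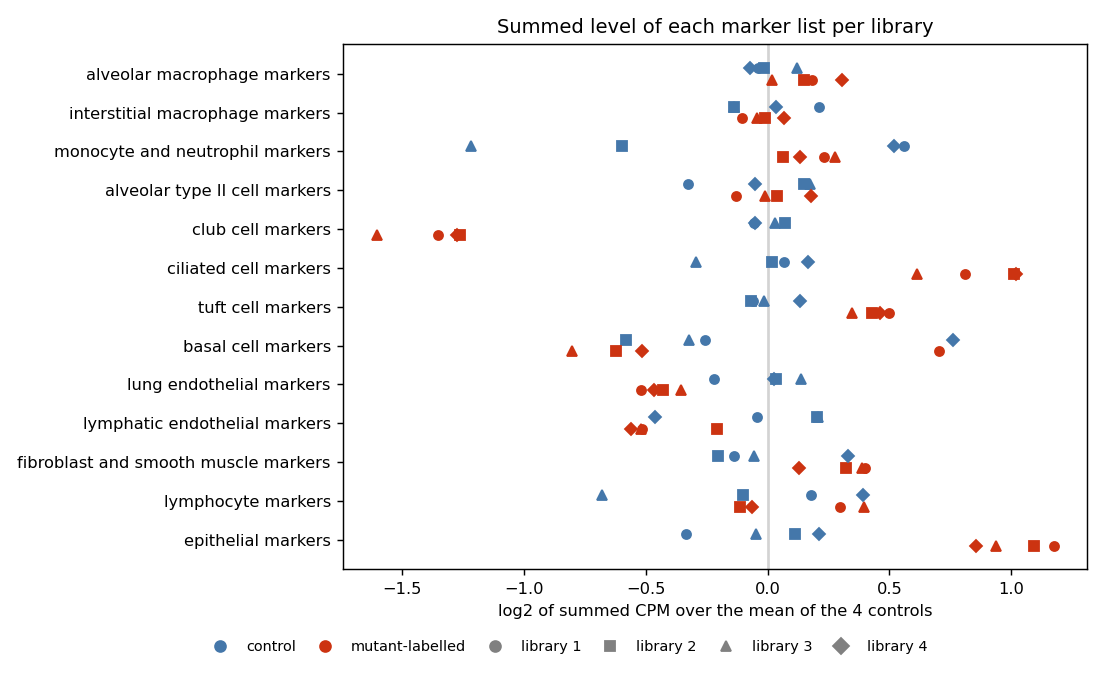
Log2 of the summed CPM of each marker list per library, relative to the mean of the 4 controls, with controls in blue and mutant libraries in red and 1 symbol per library. Club cell and lung endothelial sums lie below every control and epithelial, ciliated and tuft sums above, while both macrophage lists overlap.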

How the data were processed

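RNA was sequenced from 8 mouse libraries labelled airway cells, 4 control and 4 labelled mutant. The authors deposited a table of raw fragment counts by gene and library, with the exon length of each gene, an annotation value used here only to give levels per kilobase. Per the file headers, read pairs were counted with featureCounts 1.6.2 against GENCODE release M25 of GRCm38, without strand, and reads over several places or genes were not counted. STAR, Bowtie2 and Cufflinks appear in the submitters' processing notes with no role given, and the labels name a stranded kit and another that is not. Symbols came from GENCODE release M21 (99.53% of identifiers matched), and Il36a, Il36b and Il36g were matched through RefSeq's gene table.

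After filterByExpr (at least 10 counts, at least 15 in total) and TMM scaling, the groups were compared by the quasi-likelihood test of edgeR 4.0.16 in R 4.3.3 (robust fit, group only), with Benjamini-Hochberg adjustment over all 16964 tested genes and a threshold of 0.05. SEs were derived from the F statistic, and the test was tried on simulated data. Log2 CPM used a prior count of 2. Libraries of a group differed by 4.89 to 46.18 in chi-square per gene, above sampling noise, and each was counted once. Where libraries did not come from separate animals, adjusted p measure only the spread between these libraries.

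The 10 genes and all lists were chosen with earlier results of these data known. Named are the 10 genes, every called gene and up to 3 further genes of highest mean CPM per pathway list, Epcam, Pecam1, Ptprc, Cdh1, up to 3 genes per marker list and the 3 genes most like each of the 10. Called markers outside that rule, Cidec, Fabp1, Fabp4, and the genes so marked were picked after their values were seen. Alternatives were RLE or no scaling, no filter or a CPM filter, DESeq2 1.42.0, voom of limma 3.58.1, a replicate block, and the omission of each library, of controls 2 and 3, and of controls 1 and 4.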

Additional observations from a re-analysis of the deposited data

Results flagged for a closer look

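Over 24 genes (the 10 and the 14 called pathway genes), 48 groups of 4 libraries were searched for a library far from its group by Dixon's ratio of gap to range. Chance gives about 1 in 20 such groups, and 5 of the 48 had one. Il33 stood at 114.1 CPM in control 2 (ratio 0.852), above the other controls and below every mutant library. Chil3 stood at 805.4 CPM in mutant library 1 (ratio 0.841). Arg1 stood at 13.8 CPM in the same library (ratio 0.943), the only mutant library above 5.01 CPM. Chil4 stood at 62.8 CPM in control 3 (ratio 0.871), the highest of all 8 libraries. Spdef stood at 4.40 CPM in control 4 (ratio 0.906).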

How the results depend on the processing

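Il33, Retnla, Chil3 and Mrc1 kept their direction under all 17 alternatives, with log2 fold changes of 1.68 to 1.79, 3.06 to 3.36, 0.86 to 1.17 and 0.66 to 0.91. Leaving out 1 library gave 515 to 1517 genes higher and 146 to 1117 lower, and 8 to 22 other pathway genes higher and 0 to 2 lower. Without controls 2 and 3, 223 genes were lower, and 8 pathway genes were higher and 0 lower. Without controls 1 and 4, 3750 genes were higher and 3338 lower, and 33 pathway genes were higher and 10 lower. DESeq2 called 939 genes and 3 pathway genes lower. The direction turned for Tslp (0.04), Il1rl1 (-0.10) and Chil4 (-0.34) without controls 1 and 4, and for Il1rl1 without control 1 (-0.06) or mutant library 1, its values running from -0.09 to 0.08 when 1 library was left out. The log2 value of Chil4 reached 4.25 without controls 2 and 3. The causes were not tested. The fit with a replicate block called 11 pathway genes higher and 1 lower. Deviations of same-numbered libraries correlated at 0.007, 0.129, -0.123 and 0.134, and those of unlike-numbered libraries at -0.145 to 0.149. No pairing by number is visible in these values, but 4 libraries per group cannot exclude it. Depth limits Il5, Il13, Il25 and Epx, which have at most 20 counts in any library.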
